A study of Glycine max with 5 samples.

Results

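Pseudouridine (Ψ) sites that lie between U and C, written TΨC, made up 200 of the 1347 sites listed for soybean shoots. They were taken from the 21-nucleotide window that the list gives around each site, in which T is written for U, as the sites with T at position 10 and C at position 12, the Ψ being position 11. The rule used letters alone and no measured value, though it was chosen with earlier results of these data known. The other 1147 sites served as the reference. TΨC here names letters in a window and does not mean that a ribothymidine was measured.

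The list came from bisulfite-induced deletion sequencing (BID-seq) of poly(A)-selected RNA from shoots of the soybean cultivar Williams 82 (W82). The RNA had passed 1 round of selection, after which, the paper states, enough ribosomal RNA remained to be covered deeply. In BID-seq, bisulfite forms an adduct with Ψ, and reverse transcription past the adduct leaves a deletion, or gap, in the read. Of the 5 libraries, 3 had received bisulfite and 2 served as input without it, all from W82 shoots with no other treatment in the labels. The list holds 1 combined value per site, so that no value per library was analysed here. Each site had the reads covering it, the gap ratio (gapped reads over all reads) and the Ψ fraction (the gap ratio after conversion with the authors' calibration curve).

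Ψ is made from uridine in place by pseudouridine synthases. The TΨC sequence is best known from the T arm of transfer RNA, a short hairpin whose loop carries a nearly invariant Ψ between U (or ribothymidine) and C. In yeast and human cells, synthases of the TruB family, Pus4 and TRUB1, modify that position and also uridines of messenger RNA that sit in a similar sequence, with G directly before the UΨC and A following it after 1 further base, often within a small hairpin. In the window used here that corresponds to G at position 9 and A at position 14, which 56 TΨC sites carried, and these are called T-loop-type sites below as a name for the letters alone. Whether these sites lie in messenger RNA or in transfer RNA left after the poly(A) selection was not tested.

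The windows of 8 T-loop-type sites show the letters of this type with flanks that can pair. All coordinates are on Glycine_max_v2.1. Capitals mark positions 5 to 9 and 17 to 21, which would face each other as the stem of a T arm, with the Ψ as the second t of the loop. The 8 were those with the most gapped reads among the 36 members with G at 9, A at 14, C at 17 and at least 4 of the 5 stem pairs, so that their stems and their many gapped reads follow from the choice.
chr16:4349300-4349320, minus strand: agtaCTAGGttcaaatCCTGG
chr18:34511724-34511744, plus strand: gggtCTCGGttcgagaCCGAG
chr19:48542316-48542336, minus strand: agcaTATGGttctaacCCATA
chr3:43823258-43823278, minus strand: agcaTATGGttctaacCCATA
chr14:47731373-47731393, plus strand: tctcACCGGttcgattCCGGA
chr7:43661655-43661675, plus strand: aagtTGAGGttcaaaaCCTTT
chr9:7871393-7871413, minus strand: gaatCGGGGttcaatcCCTCT
chr6:42304517-42304537, plus strand: acagAGGGGttcaatgCCCCC

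A contrasting set shows TΨC sites of other sequence, with the most gapped reads, a low or a high fraction or a long run of U. Capitals mark positions 9 to 13, the 5 nucleotides centred on the Ψ, except in the last window, where they mark the run of U.
chr19:7189304-7189324, plus strand: atggctggCTTCCccaccaga
chr4:1601115-1601135, plus strand: aacgcaggTTTCCcccacaac
chr14:7618249-7618269, plus strand: aaggtgctGTTCCtccagtca
chr13:34254337-34254357, minus strand: aggaaaagGTTCTggcctagt
chr6:12071148-12071168, minus strand: tcgtagctTTTCCctccccaa
chr3:40554808-40554828, plus strand: cTTTTTTTTTTcatttttagg

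TΨC sites were spread over all 20 chromosomes, with 199 sites there and 1 on a scaffold. Chromosome 6 held the most, 16, and the plus strand carried 102 sites and the minus strand 98. Reads per TΨC site ranged between 6 and 9581, with a median of 262, against a median of 463 reads at other sites. Gapped reads numbered 4 to 313 per TΨC site, with a median of 24, and 37 TΨC sites had fewer than 50 reads. At such depths the gap ratio of a site is loosely fixed. The 6 gapped of 8 reads at one site on chromosome 11 gave 75%, with a 95% Wilson interval of 40.9% to 92.9%, whereas the 313 of 8936 reads at chr19:7189314 gave 3.50%, with an interval of 3.14% to 3.90%. These intervals cover counting error only, since reads copied by PCR are not independent molecules.

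TΨC sites had higher Ψ fractions than other sites. The median fraction was 40.2% at TΨC sites (95% interval 35.8% to 47.8%), against 22.3% at other sites. Of TΨC sites, 78 (39.0%, 32.5% to 45.9%) lay above a fraction of 50%, against 200 (17.4%) of other sites and 20.6% of all sites. Below a fraction of 20% the order turned, with 30 TΨC sites (15%) and 483 other sites (42.1%). The gap ratio itself had a median of 8.92% at TΨC sites (7.14% to 10.5%) and 6.65% at other sites.

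Both quantities fell with depth over the list. The list holds only sites that passed the authors' filter based on a p-value, so depth bears on which ratios could be listed. A site with few reads may be listed only where its ratio is high. How much of the fall with depth comes from this filter was not tested. The lowest gap ratio of any TΨC site was 20.0% at 50 reads or fewer, 7.82% at 51 to 200 reads, 4.11% at 201 to 1000 reads and 2.67% above 1000 reads. Groups of sites were therefore compared at equal depth, by ordinary least squares over all 1347 sites with a spline of log10 reads and standard errors of the HC3 kind. The sites, not the libraries, are the units of these fits, so their p-values measure the spread between sites. At equal depth the fraction of TΨC sites was 9.91 percentage points above that of other sites (SE 1.04, 95% interval 7.87 to 11.9, p = 6.87e-21, n = 1347 sites). The log2 gap ratio was higher by 0.13 (SE 0.037, 0.053 to 0.20, p = 0.000735, n = 1347 sites), or 1.09-fold. Without the 56 T-loop-type sites the difference in log2 gap ratio was 0.0031 (-0.058 to 0.064, p = 0.921, n = 1291 sites), and a quasi-binomial regression of the read counts turned its sign, to -0.046 (-0.13 to 0.041, p = 0.304, n = 1347 sites). The difference in fraction was 11.3 points without them. At TΨC sites the conversion from gap ratio to fraction differed between neighbouring bases (below). The differences in fraction between TΨC and other sites may therefore also carry the authors' calibration, which these fits do not separate from the sites. How much of them comes from the calibration was not tested.

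**Figure D1:**
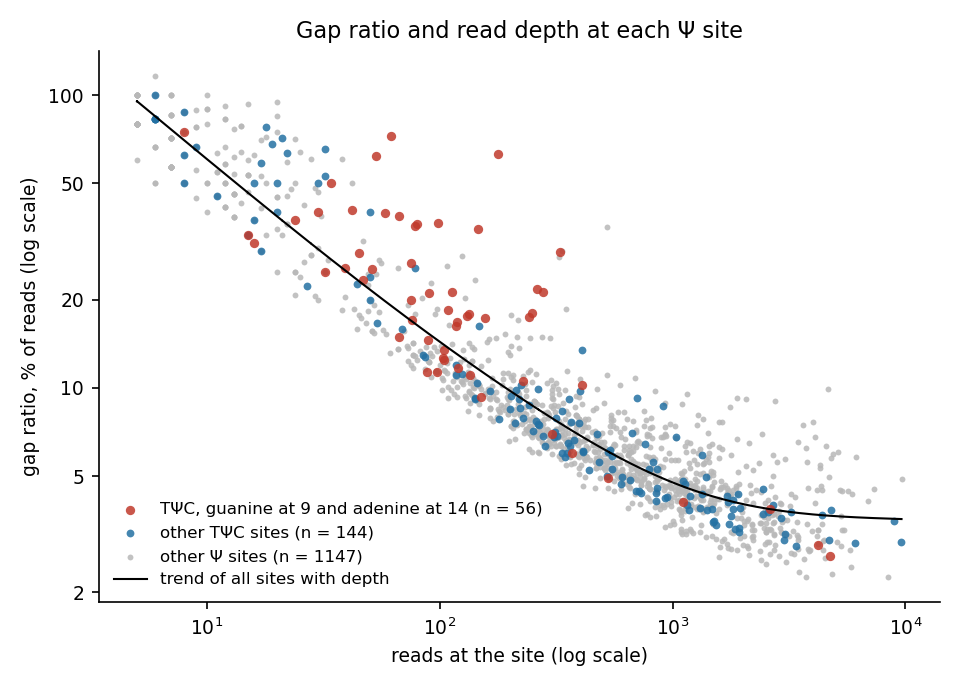
Gap ratio (% of reads, log scale) against the reads at the site (log scale) for T-loop-type TΨC sites with guanine at 9 and adenine at 14 (red, 56), other TΨC sites (blue, 144) and other Ψ sites (grey, 1147), 1 point per site, with the trend of all sites (line). Ratios fell with depth in each group, and the red points that stand farthest above the line lie between about 50 and 330 reads, with the highest ratio over the trend, 6.04, at 178 reads.

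The T-loop-type sites stood apart in gap ratio. Their median gap ratio was 19.3% (16.8% to 25.5%), against 6.79% (5.91% to 7.69%) at the other 144 TΨC sites, at a median of 103.5 reads, against 386 reads. At equal depth the log2 gap ratio was higher by 0.46 (SE 0.10, 0.26 to 0.66), a 1.38-fold difference, with an adjusted p of 0.00012 by the least-squares fit with Benjamini-Hochberg adjustment over 15 subgroups. Within classes of depth, the median gap ratio was 17.9% at T-loop-type sites and 11.2% at the other TΨC sites of 51 to 200 reads (31 and 15 sites). At 201 to 1000 reads it was 13.98% and 6.50% (10 and 59 sites). Above 1000 reads the order turned, with 3.38% at 4 T-loop-type sites and 3.82% at 41 other TΨC sites. At 50 reads or fewer it was 33.3% at 11 T-loop-type sites, with a median of 32 reads, and 53.1% at 29 other TΨC sites, with a median of 17 reads. The higher ratios were therefore seen at middle depths.

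A similar picture came from counts of sites above the trend of gap ratio with depth. Above it lay 37 of 56 T-loop-type sites (66.1%) and 48 of 144 other TΨC sites (33.3%), where 39.7% of all sites did so. Among TΨC sites with at least 50 reads, 12 of 163 exceeded the trend by more than 2-fold, and all 12 were among the 45 T-loop-type sites of that depth. Of the 12, 10 formed 4 or 5 stem pairs (83.3%), as did 31 of all 45 (68.9%), and the difference between these shares was not tested. Among other Ψ sites, 14 of 973 exceeded it as much.

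The strongest site, at chr16:4349310, had 112 gapped of 178 reads, a gap ratio of 62.9% (55.6% to 69.7%) and a fraction of 89.8%. Its ratio was 6.04 times the trend at that depth. The site at chr18:34511734, whose flanks pair at all 5 positions, had 96 of 330 reads gapped (29.1%, 24.5% to 34.2%), 3.85 times the trend. The site at chr9:7871403 had 45 of 62 (72.6%, 60.4% to 82.1%) and that at chr14:47731383 had 51 of 146 (34.9%, 27.7% to 43.0%). None of these 4 intervals reached the trend at its depth, the highest of which was 19.1%. The sites at chr19:48542326 and chr3:43823268, identical in their windows, had 59 of 278 (21.2%) and 57 of 261 (21.8%). The remaining windows of the first set had 36 of 98 at chr6:42304527 (36.7%) and 45 of 250 at chr7:43661665 (18%). All 8 were over 2 times the trend, which their choice by gapped reads favoured. Over all 36 members that met the same rule, 25 lay above the trend and 10 over 2 times above it.

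TΨC sites with either letter of the pair but not the other were deeper, with medians of 604 and 475 reads. Those with G at 9 but another base at 14 numbered 39, had a median gap ratio of 6.05% and a median fraction of 19.6%, and 20 of the 39 were below a fraction of 20%. Those with A at 14 but another base at 9 numbered 25 and had a median gap ratio of 6.80% and a median fraction of 45.3%. At 201 to 1000 reads the median gap ratio was 13.98% at T-loop-type sites, against 6.34% at 23 sites with G at 9 alone and 6.80% at 11 with A at 14 alone. At 51 to 200 reads it was 17.9%, against 11.6% at 4 and 16.7% at 3 sites. Above 1000 reads T-loop-type sites were lowest, with 3.38%, against 3.83% and 3.85%. At 50 reads or fewer the 4 sites with A at 14 alone had 60.4% at a median of 11 reads, and the T-loop type 33.3% at 32 reads. In fraction the T-loop type was lower than the sites with A at 14 alone in all 4 classes, for example 39.7% against 45.3% at 201 to 1000 reads and 11.8% against 34.4% above 1000 reads. Of the 25 sites with A at 14 alone, 18 had C at 9. The conversion from gap ratio to fraction differed by the base at 9 (below), so this difference also carries the calibration. With the base at 9 and the base at 14 both as further terms in the fit, an alternative added after the data were seen, the T-loop-type difference was 0.58 in log2 gap ratio (0.32 to 0.84, p = 1.16e-05, n = 56).

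The letters beyond positions 9 and 14 also differed. C stood at position 17 in 48 of 56 T-loop-type sites (85.7%, 74.3% to 92.6%), against 33 of 144 other TΨC sites (22.9%, 16.8% to 30.4%). G at position 8 was found in 85.7% and 43.8%, and C at position 18 in 75% and 25.7%. In the loop, a purine stood at position 13 in 57.1% of T-loop-type sites and 13.2% of other TΨC sites, and a pyrimidine at position 16 in 83.9% and 54.2%. C at 17, a purine at 13 and a pyrimidine at 16 are also what the T arm of transfer RNA generally carries at the places that correspond.

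Read as a T arm, with positions 5 to 9 facing 17 to 21 around a 7-base loop and G-U pairs allowed, at least 4 of the 5 pairs formed at 40 of 56 T-loop-type sites (71.4%, 58.5% to 81.6%). This was so at 19 of 144 other TΨC sites (13.2%, 8.61% to 19.7%), 100 of 1147 other Ψ sites (8.72%, 7.22% to 10.5%) and 11.8% of all sites. All 5 pairs formed at 21, 7 and 15 sites, which is 37.5%, 4.86% and 1.31% of these groups. The choice of G at 9 bears on the pair of 9 with 17, which formed at 92.9% of T-loop-type sites and 36.1% of other TΨC sites. The pairs it does not bear on went the same way, 94.6% and 48.6% for 8 with 18, 78.6% and 45.8% for 7 with 19, and 75% and 46.5% for 6 with 20. The outermost pair, 5 with 21, formed at 46.4% and 40.3%. With Watson-Crick pairs alone the shares with at least 4 pairs were 53.6% at T-loop-type sites, 4.17% at other TΨC sites and 1.48% at other Ψ sites. Counting each distinct window once left 70.2%, 12.4% and 8.82%.

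**Figure D2:**
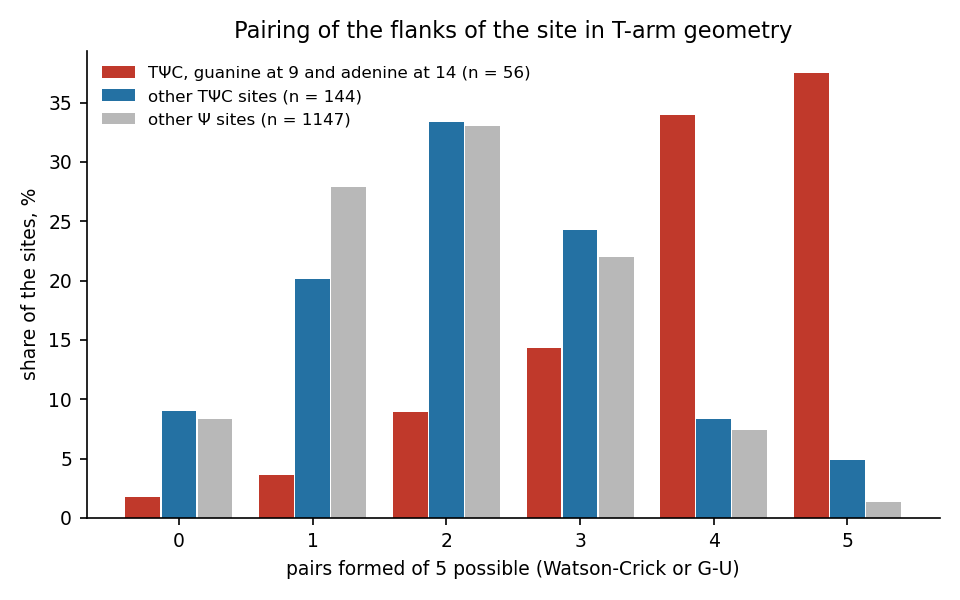
Share of sites (%) by the number of stem pairs formed out of 5 possible, for T-loop-type TΨC sites (red, 56), other TΨC sites (blue, 144) and other Ψ sites (grey, 1147). The red bars are highest at 5 pairs (37.5%), and the blue and grey bars at 2 pairs (33.3% and 33.0%).

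Within the T-loop type, pairing and gap ratio had no clear order, at few sites. The 40 sites with 4 or 5 pairs had a median gap ratio of 21.2% at 94 reads, and the 16 with fewer pairs one of 16.8% at 118.5 reads. Relative to the trend with depth, their median log2 deviations were 0.24 (0.0039 to 0.56) and 0.36 (-0.18 to 0.66). With 4 or 5 pairs the median gap ratio was higher at 201 to 1000 reads (19.6% at 6 sites, 8.61% at 4). It was also higher at 50 reads or fewer (33.3% at 9, 31.7% at 2). At 51 to 200 reads (17.9% at 23, 19.3% at 8) and above 1000 reads (3.26% at 2, 3.48% at 2) it was lower. Keeping only the 16 sites with fewer pairs, the T-loop-type difference from other TΨC sites was 0.35 in log2 gap ratio (0.073 to 0.63, p = 0.0136, n = 16). Among TΨC sites that were not of the T-loop type, 19 formed 4 or 5 pairs and had a median gap ratio of 5.81% at 848 reads, 0.15 below the trend on the log2 scale, where the 125 with fewer pairs were 0.12 below it. Folding was read from letters only, and no structure was measured.

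Of the 15 subgroups by neighbouring base or U-run with at least 10 sites, 8 passed an adjusted p of 0.05 in log2 gap ratio by the least-squares fit, 4 higher and 4 lower than the other TΨC sites. A at 13 was higher by 0.43 (SE 0.12, adjusted p = 0.00137, n = 36), A at 14 by 0.30 (SE 0.081, adjusted p = 0.00128, n = 81) and G at 9 by 0.21 (SE 0.074, adjusted p = 0.0082, n = 95), besides the T-loop type. The lower ones were C at 13 (-0.24), C at 9 (-0.23), G at 14 (-0.21) and C at 14 (-0.19), with adjusted p from 0.000943 to 0.00651. With deciles of depth in place of the spline, G at 9 (0.11, adjusted p = 0.344, n = 95) and A at 14 (0.18, adjusted p = 0.094, n = 81) did not pass. G at 14 did not pass at a fraction of at least 20% (-0.14) or in the quasi-binomial regression (-0.11). Without the 56 T-loop-type sites none of the 13 subgroups left passed the adjusted p by the same fit, with 1 under an unadjusted p of 0.05. A at 13 then had a difference of 0.33 (adjusted p = 0.211, n = 13).

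In the Ψ fraction 9 of 15 subgroups passed, in another pattern. The conversion from gap ratio to fraction differed by 5-nucleotide context (below). Differences in fraction by the base at 9 or 13 therefore also carry the authors' calibration, and these fits do not separate it from the sites. C at 9 was higher by 12.5 points (SE 1.73, adjusted p = 6.64e-12, n = 51) and C at 13 by 11.3 points (SE 1.80, adjusted p = 2.01e-09, n = 104), while G at 9 was lower by 14.5 points (SE 1.66, adjusted p = 1.26e-16, n = 95) and T at 13 by 11.5 points (SE 1.80, adjusted p = 1.23e-09, n = 45). T at 9 was higher by 5.07 points, G at 13 lower by 9.45 points and G at 14 lower by 5.95 points, with adjusted p from 0.0226 to 0.0375. Each of these 3 lost its call at a fraction of at least 20%, with 4.19, -9.93 and -0.66 points. Of the 4 subgroups that passed in both quantities, 3 had opposite signs, namely C at 9, G at 9 and C at 13, and 1, G at 14, was lower in both. The T-loop type did not pass in the fraction (-4.79 points, SE 2.34, -9.37 to -0.20, adjusted p = 0.061, n = 56). With the base at 9 and the base at 14 as further terms its difference was of the opposite sign, 9.69 points (2.97 to 16.4, p = 0.00471, n = 56).

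**Figure D3:**
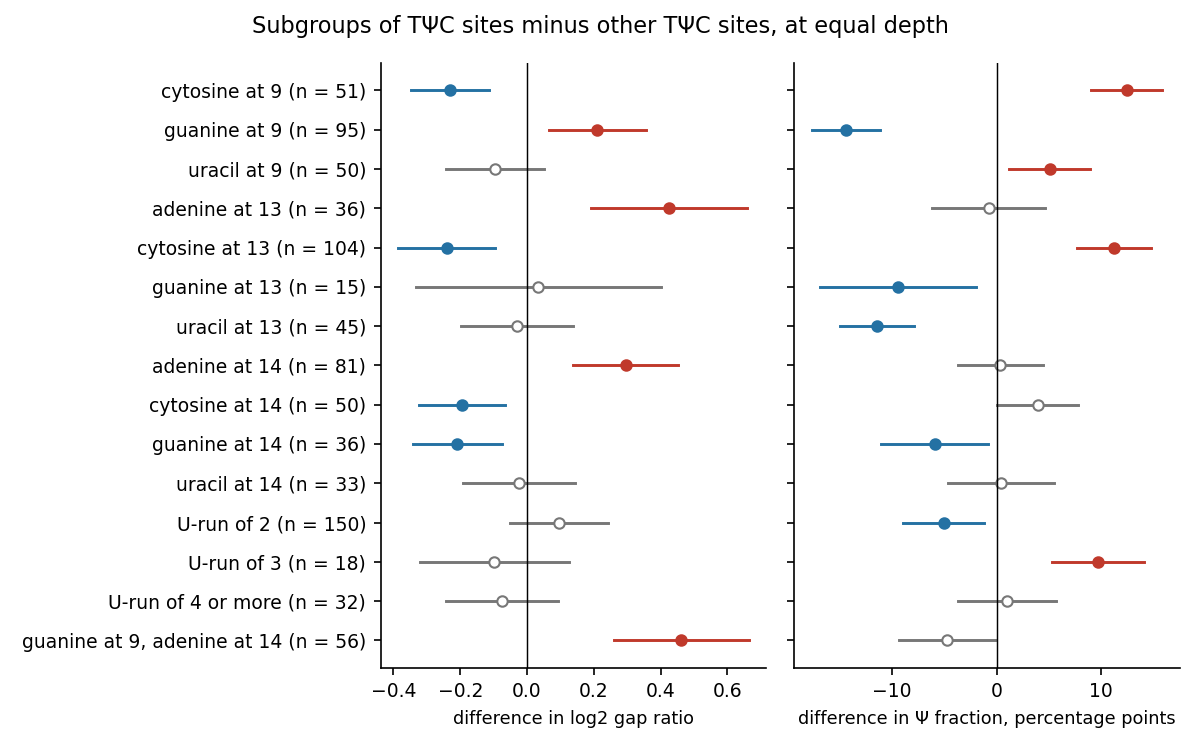
Differences between each subgroup of TΨC sites and the other TΨC sites at equal depth, with 95% intervals, in log2 gap ratio (left) and in Ψ fraction in percentage points (right). Filled points passed an adjusted p of 0.05 (red higher, blue lower) and open points did not; cytosine at 9, guanine at 9 and cytosine at 13 are filled on opposite sides of 0 on the left and the right.

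The conversion from gap ratio to fraction differed between neighbouring bases. In the 13 of 15 5-nucleotide contexts that had more than 1 TΨC site, a higher gap ratio never went with a lower fraction. That order follows from conversion by a calibration curve and does not itself show that contexts had separate curves. Interpolated at a gap ratio of 10%, the fraction was 62.2% in CTΨCC, 58.4% in TTΨCC, 34.3% in TTΨCT, 33.2% in CTΨCT, 32.6% in GTΨCC, 29.8% in GTΨCA, 27.6% in GTΨCG and 27.1% in GTΨCT. At a gap ratio of 5% it was 42.2% in CTΨCC and 14.8% in GTΨCT. The 41 CTΨCC sites had a median gap ratio of 4.55% and a median fraction of 39.6%. The 27 GTΨCT sites had a higher median gap ratio, 7.03%, and a lower median fraction, 20.1%. The fraction therefore orders TΨC sites of different contexts otherwise than the gap ratio does.

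**Figure D4:**
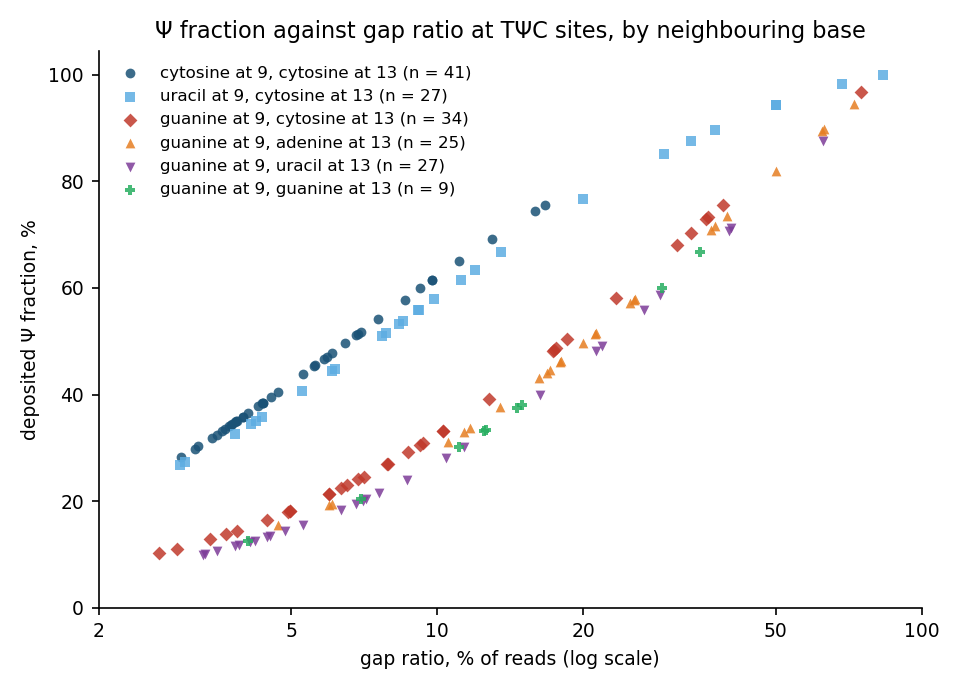
Deposited Ψ fraction (%) against gap ratio (% of reads, log scale) at TΨC sites, 1 point per site, by the bases at positions 9 and 13 (6 combinations, with their numbers of sites). Sites with cytosine at 13 after cytosine or uracil at 9 lie on upper curves and those with guanine at 9 on lower ones, near 62.2% and 27.1% at a gap ratio of 10% for the extremes.

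Single sites show the same. At chr19:7189314, in CTΨCC, 313 of 8936 reads were gapped (3.50%) and the fraction was 32.5%. At chr14:7618259, in GTΨCC, 161 of 4391 reads were gapped (3.67%, 3.15% to 4.26%) and the fraction was 13.8%. The intervals of both gap ratios overlap, whereas the fractions differ by more than 2-fold. In TTΨCC, chr4:1601125 had 183 of 4794 reads gapped (3.82%) with a fraction of 32.6%. The other members with the most gapped reads were chr19:7253788 (284 of 9581, 2.96%), chr7:3183755 (178 of 6054, 2.94%) and chr6:1545674 (141 of 4685, 3.01%), in CTΨCC or TTΨCC, with fractions of 26.8% to 28.2%.

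The lowest fractions all had G at 9. They were 9.96% at chr13:34254347 (61 of 1854 reads) and 10.0% at chr5:34550349 (64 of 1930 reads), both in GTΨCT followed by G, and 10.2% at chr9:7091300 (127 of 4765 reads), a T-loop-type site with 4 stem pairs. The last of these shows that the letters alone did not go with a high ratio in every case, as its 2.67% was the lowest gap ratio of all TΨC sites. At 100 reads or more, the highest fractions were those of chr16:4349310 (89.8%) and chr14:47731383 (66.8%), of the T-loop type, and of 4 sites outside it. The 4 were chr6:12071158 with 66.7% (55 of 407 reads, 13.5%, 10.5% to 17.2%), chr16:7451301 with 65.1% (13 of 117), chr14:28585586 with 63.4% (14 of 117) and chr12:37133445 with 61.5% (14 of 125). Of these 4, only chr6:12071158 lay above the trend with depth, by 1.98-fold.

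By U-run, 150 TΨC sites lay in a run of 2 U that held the Ψ, 18 in a run of 3 and 32 in a run of 4 or more. The runs of 4 or more had a median gap ratio of 26.1% and a median fraction of 72.7%, against 7.57% and 36.2% in runs of 2. They also had far fewer reads, a median of 38 against 314.5. At equal depth runs of 4 or more differed from other TΨC sites by -0.07 in log2 gap ratio (-0.24 to 0.093, adjusted p = 0.487, n = 32) and by 0.99 points in fraction (-3.69 to 5.68, adjusted p = 0.846, n = 32), which the least-squares fit did not tell from 0. Runs of 3 were higher in fraction by 9.73 points (SE 2.24, adjusted p = 4.48e-05, n = 18) and runs of 2 lower by 5.07 points (adjusted p = 0.0226, n = 150). The call on runs of 2 was lost at a fraction of at least 20% (-4.19 points) and without the T-loop-type sites (-3.73 points). The comparison of runs of 2 with the rest is that of T at 9 with its sign changed, since a longer run needs T at 9.

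In runs of 6 or more, values were lower at greater depth, as over the whole list. The 13 such sites with under 100 reads had fractions of 60.7% to 100%, and the 5 with more had fractions of 26.3% to 58.0%. The 3 deepest in runs of 10, the longest found, were chr3:40554818 (30 of 395 reads, 7.59%, fraction 33.0%), chr9:4606395 (25 of 377, 6.63%, fraction 26.3%) and chr13:44112329 (20 of 344, 5.81%, fraction 26.8%). A gap within a run of U can be placed at any of its bases, and the position of the Ψ within such a run was not tested.

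Copies of a sequence at separate places in the genome gave a check of how far equal letters went with equal values. Within 3 mismatches over 21 bases, 42 TΨC sites (21%) formed 33 pairs, of which 16 pairs were identical and 31 lay on different chromosomes. The gap ratios of a pair differed by a median of 1.19-fold. By Fisher's exact test on gapped and other reads, two-sided and with Benjamini-Hochberg adjustment over the 33 pairs, 9 pairs differed. How reads that match both copies were assigned is not given in the sources used here, and whether copies share reads was not tested. The test also takes reads as independent molecules, which reads copied by PCR and pooled over libraries are not, so that its p-values cover counting error only and are too small where copies are many.

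Of the 9 pairs of T-loop-type sites with identical windows, 8 did not differ by this test. The exception, on chromosomes 11 and 2, had 6 of 8 and 20 of 108 reads gapped (75% and 18.5%, adjusted p = 0.00567 by Fisher's exact test), with read numbers 13.5-fold apart. At 8 reads the trend of all listed sites was 70.1%, and no TΨC site of 50 reads or fewer lay below 20.0%. For this pair the test therefore cannot tell a difference between copies from the effect of which shallow sites were listed. The closest pair, on chromosomes 10 and 20, had 13 of 103 and 13 of 104 reads gapped.

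**Figure D5:**
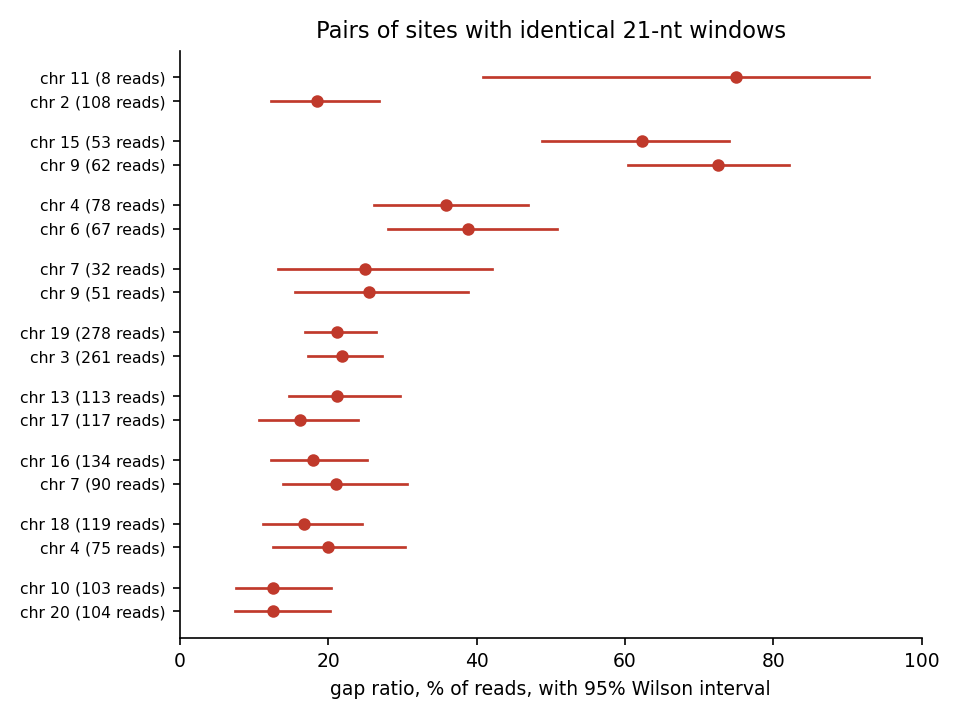
Gap ratio (% of reads) with 95% Wilson intervals at the 9 pairs of T-loop-type sites with identical 21-base windows, each pair set together and named by chromosome and reads. The intervals overlap within each pair except the uppermost, where 75% of 8 reads stands against 18.5% of 108 reads.

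The other 8 pairs that differed all came from a family of 6 sites with 3 windows, shown because few letters separated its high and low members and chosen after their values were seen. Capitals mark the stem positions, and each window occurred at 2 sites.
chromosomes 9 and 15: gaatCGGGGttcaatcCCTCT
chromosomes 13 and 17: gaacCGTGGttcaatcCCTCT
chromosomes 7 and 16: gatcCGGGGttcaatcCCTCT

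The first window had gap ratios of 72.6% (45 of 62 reads, chromosome 9) and 62.3% (33 of 53, chromosome 15). The second had 21.2% (24 of 113, chromosome 13) and 16.2% (19 of 117, chromosome 17), and the third 21.1% (19 of 90, chromosome 7) and 17.9% (24 of 134, chromosome 16). Summed over its sites, the first window reached 67.8% (58.8% to 75.7%), against 18.7% (14.2% to 24.2%) and 19.2% (14.6% to 24.9%). Counted from the 5′ end and relative to the first window, the second carried T4C and G7T and the third A3T and T4C. The change shared by both low windows, T4C, and A3T lie outside the stem and the loop, whose letters are the same in the first and the third window. All 8 comparisons of a high with a low site had an adjusted p of at most 7.07e-06 by Fisher's exact test, and those between low sites, or between both high sites, one of at least 0.692. These comparisons reuse the same 6 sites, chosen for their values, so they are not separate tests of the difference. Bases beyond the window were not compared.

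The letters around TΨC sites also set them apart from other Ψ sites. C stood at position 13 in 52.0% of TΨC sites (45.1% to 58.8%) and 18.9% of other sites, and T there in 22.5% and 48.0%. At position 14, A was found in 40.5% of TΨC sites and 21% of other sites, and G in 18% and 49.5%. G at position 8 stood in 55.5% and 35.1%, C at 18 in 39.5% and 20.2%, and T at 15 in 29.0% and 11.2%. G at 9 was less frequent at TΨC sites, 47.5%, than at other sites, 58.7%, while C at 9 was more frequent, 25.5% against 12.5%. Part of these shares comes from the 56 T-loop-type sites, which all have G at 9 and A at 14 by definition. The other 144 TΨC sites had A at 14 in 17.4%, less than other Ψ sites, and G at 9 in 27.1%. They had G at 8 in 43.8%, C at 18 in 25.7%, T at 15 in 21.5% and C at 13 in 60.4%.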

How the data were processed

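Poly(A)-selected RNA of W82 shoots was sequenced by BID-seq in 5 libraries, 3 treated and 2 input, grouped by their labels. The authors processed the reads with their published BID-seq pipeline against Glycine_max_v2.1, combined the replicates and kept sites by a filter based on a p-value. The aligner and thresholds are not given in the sources used here. The deposited read count per site is not normalized. The paper gives the gap ratio as gapped over all reads, and the deposited Ψ fraction (0 to 1, printed as a percent) is that ratio after the authors' calibration. At 1 of the other 1147 sites the deposited ratio was 116.7%, more than a share of all reads can reach. The least-squares fits kept that value as deposited. Gapped reads were taken as ratio times reads, which came out whole within 0.01 at all 200 TΨC sites. Since the values are combined, depth per library and the spread between replicates were not analysed here.

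Groups of sites were compared by ordinary least squares in numpy 2.4.6, with a natural cubic spline of log10 reads (4 df) and HC3 standard errors, tested on simulated data. Other software was patsy 1.0.2 for the spline, scipy 1.17.1 for p-values and exact tests, statsmodels 0.14.6 for the quasi-binomial regression, pandas 2.3.3 and Python 3.11.15. Subgroup fits added the 3-nucleotide motif as a factor, so that a subgroup was set against the other TΨC sites, with Benjamini-Hochberg adjustment over 15 subgroups of at least 10 sites and a threshold of 0.05. A at 9, with 4 sites, was not tested. Deviations from the trend with depth came from the same spline without groups. Pairs of near copies were tested by Fisher's exact test. Intervals of shares are Wilson intervals at 95%. Figures were drawn with matplotlib 3.10.9.

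Sites named are the 6 with most gapped reads, the 6 of highest fraction at 100 reads or more, the 3 of lowest fraction, up to 8 with G at 9, A at 14, C at 17 and at least 4 stem pairs, and 3 in the longest U-runs. The copies with identical windows were named after their values were seen. Members, subgroups and lists were chosen with earlier results of these data known. The alternatives tried were deciles of depth, a spline of 8 df, at least 50 reads, a fraction of at least 20%, no runs of 4 or more U, sites within 5 nucleotides counted once, distinct windows, quasi-binomial regression, Watson-Crick pairs alone and identical windows alone. The cut on fraction selects on the outcome of the fits, since the fraction is computed from the gap ratio. Fits without the T-loop-type sites, with both bases as terms, or with T-loop-type sites of fewer than 4 pairs alone were added after the data were seen. A table of gene expression on other gene models was not used, since its 2 columns of values per sample could each belong to an input or to a treated library by name. The genes in which the sites lie were not analysed here, because the gene table at hand is on another assembly.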

Additional observations from a re-analysis of the deposited data

How the results depend on the processing

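No paired analysis was possible because replicates were merged to 1 value for every site, and for the same reason leaving out each library in turn could not be run. The higher log2 gap ratio of TΨC sites turned to -0.046 in the quasi-binomial regression (log2 odds) and to 0.0031 without the T-loop-type sites. It kept its sign and passed in the other 7 alternatives, as their higher fraction did in all 8 run. All 8 used the deposited fraction, so none of them tested the authors' calibration. The T-loop type kept a higher log2 gap ratio past the threshold in all 10 alternatives, with 0.33 (depth deciles) to 0.62 (fraction of at least 20%). That cut on fraction selects on a value computed from the gap ratio itself, so it is no independent check. It left out 6 of 56 T-loop-type sites and 24 of 144 other TΨC sites. The next largest value was 0.61, at 50 reads or more. In fraction the T-loop type was at -7.70 points with depth deciles and -5.45 with the spline of 8 df, both past the threshold by adjusted p. It was at -6.49 with T-loop-type sites of fewer than 4 pairs alone, and at 9.69 with both bases as terms. In both quantities these last fits were judged by p-values without adjustment. By least squares the unadjusted p was 0.0407 for -6.49 and 0.0406 for the main -4.79, whose adjusted p was 0.061. Subgroups past the threshold numbered 0 of 13 in log2 gap ratio without the T-loop-type sites, and 5 of 15 in fraction at a fraction of at least 20%. At least 4 stem pairs formed at 18% of TΨC sites and 53.6% of T-loop-type sites with Watson-Crick pairs alone. Among the 16 identical pairs alone, 1 differed. The cause of these shifts was not tested.

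Of 234 values of single subgroups under alternatives, 187 kept direction and side of the threshold, 21 fell short of it, 2 newly passed it and 24 changed sign, none of these 24 past the threshold. In log2 gap ratio with depth deciles, the changed values were T at 9 0.049, T at 13 0.026, T at 14 0.16, run of 2 -0.049 and run of 4 or more 0.12. Without the T-loop-type sites they were G at 9 -0.10, T at 9 0.093, A at 14 -0.042, T at 14 0.14, run of 2 -0.093, run of 3 0.055 and run of 4 or more 0.087. T at 13 was 0.12 at a fraction of at least 20% and 0.0052 in the quasi-binomial regression, where T at 14 was 0.0064. In fraction, A at 13 was 0.22 points without long runs and 0.13 at a fraction of at least 20%. A at 14 was -2.04 with depth deciles, -0.25 with distinct windows and -0.35 at a fraction of at least 20%. T at 14 was -0.82 at 50 reads or more and -1.35 without the T-loop-type sites. Runs of 4 or more were -0.10 at a fraction of at least 20% and -0.76 without the T-loop-type sites.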

Other observations

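Another listed site lay within 100 nucleotides of 6 TΨC sites. On chromosome 11, TΨC sites at 12030378 and 12030439, 61 nucleotides apart on the minus strand, had 19 of 222 reads gapped (8.56%) with a fraction of 57.8%, and 23 of 364 reads gapped (6.32%) with a fraction of 22.4%. The T-loop-type site at chr9:7091300, with 127 of 4765 reads gapped (2.67%), had a neighbour at 24 nucleotides that is not a TΨC site, with 151 of 5088 reads gapped (2.97%). The closest neighbour lay at 4 nucleotides from chr19:35691461, where 9 of 24 reads (37.5%) were gapped at the TΨC site and 8 of 22 (36.4%) at the other. Whether gaps at such close sites are independent was not tested.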
